A study of Rattus norvegicus with 72 samples.

Results

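Adrbk1 (Grk2), Arrb1 and Arrb2 are the receptor desensitization genes of a qRT-PCR panel measured in rat brain, taken by name as 3 of the 145 genes on the panel. Adrbk1 encodes GRK2, the beta-adrenergic receptor kinase, and Arrb1 and Arrb2 encode β-arrestin 1 and β-arrestin 2. The genes were read in the dorsal vagal complex (DVC), a brainstem centre of autonomic control, and in the central nucleus of the amygdala (CeA), which takes part in emotional and autonomic responses.

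An agonist-bound G-protein-coupled receptor is phosphorylated by GRK2, which is brought to the membrane by free G-protein βγ subunits. β-Arrestins bind the phosphorylated receptor, block further coupling to the G-protein, link the receptor to clathrin-mediated internalization and hold kinases of the ERK and Akt pathways on the internalized receptor. In neurons this sequence limits the response to opioid, peptide and monoamine agonists.

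The primers of each reading, which were used with a probe not shown here, are given because the β-arrestin genes are paralogs. The 5 bases at each 3′ end, where extension starts, are in capitals.

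Adrbk1 forward: aagaagatcctgctgCCAGA
Adrbk1 reverse: ccggaaaagcaggtaTCCTA
Arrb1 forward: gggagaccttgcatCCAGT
Arrb1 reverse: ggagtctcgctctctGGAAC
Arrb2 forward: gatcctgtcgatggtGTGGT
Arrb2 reverse: ggaaagacaggcccaGTACA

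The longest run of bases shared by the Arrb1 and Arrb2 primers was 4 for the forward pair and 4 for the reverse pair. RefSeq gene names on GRCr8 list Adrbk1 as Grk2 and also hold a pseudogene of each β-arrestin, Arrb1-ps1 and Arrb2-ps. Whether the primers also amplify these was not tested.

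The samples were bilateral punches from 40 male Sprague Dawley rats, young when they arrived, that were killed at Zeitgeber time 3, 5 or 9 (ZT3, ZT5 and ZT9, hours after lights on). The question was whether expression in each region differs with the time of day. Rats of all groups were untreated and alcohol-naïve and ate an alcohol-free Lieber DeCarli liquid diet. For several weeks before they were killed they were held to the calories taken by matched alcohol-fed animals. The DVC was sampled in 7, 17 and 15 animals at ZT3, ZT5 and ZT9, and the CeA in 7, 14 and 12, with both regions from 32 animals. Each sample is 1 animal, and the readout is C_T, the PCR cycle at which a product crosses a threshold, so a lower C_T means more cDNA.

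All 3 genes had a value in all 39 DVC samples and in 31 of 33 CeA samples. The 2 exceptions, CeA ZT5 replicate 1 and CeA ZT9 replicate 10, lacked all 72 assays of the set to which the genes belong. Animals carry numbers in the labels: 16 were numbered below S166 and 24 from S166 up, and all ZT3 animals belonged to the higher-numbered set, the first of them being S169. What the numbers mark is not given in the sources used here, and RNA came from either of 2 extraction kits whose assignment to samples is likewise not given. The region labels were checked by Slc6a2, the noradrenaline transporter of noradrenergic neurons, which was read in 38 of 39 DVC samples and in 1 of 33 CeA samples. Because a punch is bulk tissue, fewer cells of a type and less RNA per cell cannot be told apart.

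Adrbk1 had the largest differences between time point means of the 3 genes. DVC samples had an Adrbk1 C_T from 19.78 through a median of 19.98 to 20.39 at ZT3 (n = 7), from 18.56 through 19.59 to 20.43 at ZT5 (n = 17), and from 19.61 through 19.95 to 21.94 at ZT9 (n = 15). Median expression was highest at ZT5, and the ranges of the 3 time points overlapped. CeA samples had 19.59, 20.17 and 20.94 as lowest, median and highest C_T at ZT3 (n = 7), 18.83, 19.46 and 20.46 at ZT5 (n = 13), and 18.84, 19.45 and 20.34 at ZT9 (n = 11). There the ZT3 samples were low in expression and the ranges at ZT5 and ZT9 nearly coincided.

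Values were also expressed as −ΔΔC_T, the difference from the ZT5 mean with its sign turned so that a positive value means more expression. For Adrbk1 in the DVC it was −0.38 ± 0.21 (SD, n = 7) at ZT3 and −0.47 ± 0.60 (SD, n = 15) at ZT9, against an SD of 0.56 at ZT5 (n = 17). If product doubles in each cycle, −0.47 is a 1.39-fold lower level at ZT9. The CeA mean was −0.72 ± 0.49 (SD, n = 7) at ZT3, 1.64-fold lower than at ZT5, and −0.00 ± 0.45 (SD, n = 11) at ZT9, against an SD of 0.41 at ZT5 (n = 13). These differences varied with the normalization: on raw C_T values ZT3 minus ZT5 in the CeA was −0.022 for Adrbk1, where the median over all genes was 0.61, and ZT9 minus ZT5 in the DVC was 0.023, where that median was 0.49. The limma F-test over time points gave Adrbk1 an adjusted p of 0.211 in the DVC (p = 0.0421) and 0.065 in the CeA (p = 0.00338). Neither passed the threshold of 0.05, which 15 of 145 genes (10.3%) passed in the DVC and 5 genes (3.52% of those tested) in the CeA.

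**Figure D1:**
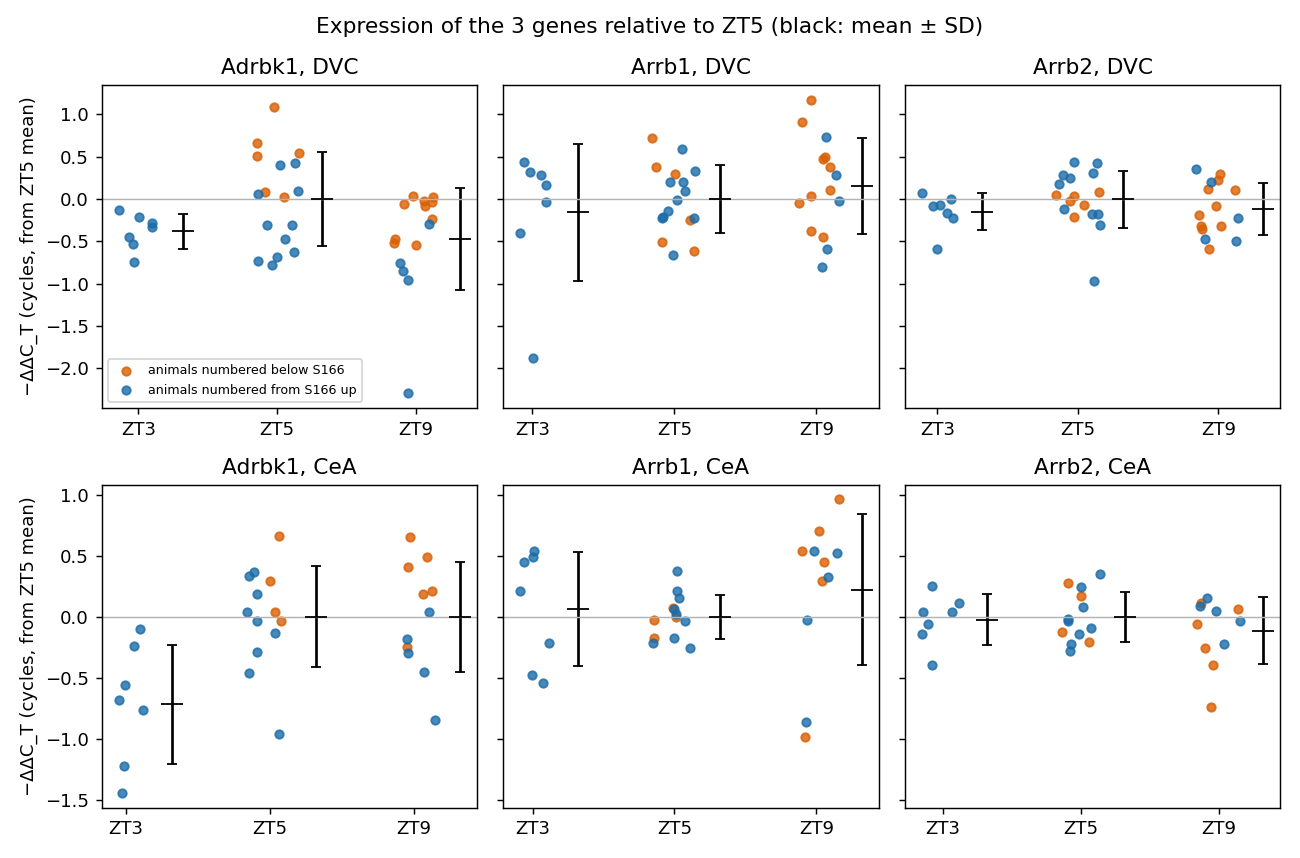
−ΔΔC_T in cycles (log2) against time point for each gene (columns) in the DVC (top) and CeA (bottom), 1 point per sample, coloured by animal number, with the mean ± SD in black. The mean of Adrbk1 in the CeA lay at −0.72 at ZT3, while each Arrb2 sample lay within 1 cycle of its ZT5 mean in all 6 groups.

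Single contrasts of Adrbk1 missed the threshold as well. The ZT3 minus ZT5 difference in the CeA was −0.72 (95% CI −1.15 to −0.29, limma adjusted p = 0.0635), a contrast in which 2 genes (1.41%) passed. ZT9 minus ZT3 there was 0.71 (95% CI 0.27 to 1.16, adjusted p = 0.174; 1 gene, 0.704%, passed), while ZT9 minus ZT5 was −0.00 (95% CI −0.38 to 0.37; 7 genes, 4.93%, passed). For the DVC, ZT9 minus ZT5 was −0.47 (95% CI −0.85 to −0.09, adjusted p = 0.11; 11 genes, 7.59%, passed) and ZT3 minus ZT5 was −0.38 (95% CI −0.86 to 0.10, adjusted p = 0.494; 8 genes, 5.52%, passed). Taken as a single gene, with no adjustment for the panel, the permutation test of Adrbk1 over time points gave p = 0.0436 in the DVC and p = 0.0033 in the CeA, where limma put 31 genes (21.4%) and 21 genes (14.8%) at an unadjusted p of 0.05 or less. Leaving out CeA ZT3 replicate 6, ZT5 replicate 10, ZT5 replicate 16 or ZT9 replicate 11 brought the adjusted p of the CeA F-test to 0.0384, 0.0383, 0.0481 or 0.0302. Only these 4 of 31 omissions took it past the threshold, and in the others it rose to as much as 0.205.

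Arrb1 differed little between time points beside its spread. Its C_T in the DVC ran from 18.67 through 18.94 to 20.98 at ZT3, from 18.38 through 19.11 to 19.76 at ZT5 and from 17.93 through 19.00 to 19.91 at ZT9. CeA values were 18.57, 18.90 and 19.65 at ZT3, 18.74, 19.12 and 19.37 at ZT5 and 18.15, 18.66 and 20.10 at ZT9. The samples of the 3 time points overlapped throughout. The ZT9 minus ZT5 difference was 0.16 in the DVC (95% CI −0.23 to 0.54) and 0.22 in the CeA (95% CI −0.15 to 0.60), and the limma F-tests gave adjusted p-values of 0.692 and 0.815. The spread itself differed by group, with an SD of 0.18 in the CeA at ZT5 (n = 13) beside 0.62 at ZT9 (n = 11) and 0.81 in the DVC at ZT3 (n = 7).

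Arrb2 had the narrowest spread of the 3 genes within each region, with an SD of 0.31 over the DVC samples and 0.23 over the CeA samples. Its C_T in the DVC ran from 17.71 through 17.86 to 18.37 at ZT3, from 17.35 through 17.75 to 18.75 at ZT5 and from 17.43 through 17.98 to 18.37 at ZT9. CeA values were 17.88, 18.10 and 18.53 at ZT3, 17.78, 18.16 and 18.41 at ZT5 and 17.97, 18.17 and 18.87 at ZT9. No time point stood apart. Its ZT9 minus ZT5 difference was −0.12 in the DVC (95% CI −0.36 to 0.12) and −0.11 in the CeA (95% CI −0.35 to 0.13), and the limma adjusted p over time points was 0.737 and 0.834. These intervals do not show that the levels were equal.

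Ordered from most to least expression by mean C_T, Adrbk1 ran from CeA ZT5 (19.49 ± 0.41) and CeA ZT9 (19.50 ± 0.45) through DVC ZT5 (19.65 ± 0.56), DVC ZT3 (20.03 ± 0.21) and DVC ZT9 (20.12 ± 0.60) to CeA ZT3 (20.21 ± 0.49). The order of Arrb2 separated the regions, with DVC ZT5 (17.78 ± 0.34), DVC ZT9 (17.90 ± 0.31) and DVC ZT3 (17.93 ± 0.22) ahead of CeA ZT5 (18.13 ± 0.21), CeA ZT3 (18.15 ± 0.21) and CeA ZT9 (18.24 ± 0.27). Arrb1 ran from CeA ZT9 (18.89 ± 0.62) through DVC ZT9 (18.95 ± 0.56), CeA ZT3 (19.05 ± 0.47), DVC ZT5 (19.10 ± 0.40) and CeA ZT5 (19.11 ± 0.18) to DVC ZT3 (19.26 ± 0.81). Errors are SDs over the samples with a value, and each neighbouring pair in these orders differed by less than the larger of its SDs. C_T values of different genes come from different primers and were not compared.

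Between the regions, Arrb2 was expressed more in the DVC. Its C_T was 17.85 ± 0.31 (SD, n = 39) in the DVC and 18.18 ± 0.23 (SD, n = 31) in the CeA, a difference in expression over the time points of 0.31 (95% CI 0.15 to 0.46, limma adjusted p = 0.000341), or 1.24-fold. Region differences were common on the panel, where 100 genes (70.4%) passed, 59 of them (41.5%) higher in the DVC, and the median over all genes was 0.11. Arrb2 passed at ZT5 (0.35, adjusted p = 0.00519; 59.2% of genes passed) and at ZT9 (0.34, adjusted p = 0.0119; 58.5%), and at ZT3 it was 0.22 (adjusted p = 0.26; 45.8%). Within animals Arrb2 was higher in the DVC in 24 of 30, and in 10 of 10 of those numbered below S166. The direction depended on the scaling. It was 0.76 when raw C_T values were centred on the median of the assay set that holds the 3 genes, with a median of 0.60 over that set. Centring on genes read in every sample of both regions gave −0.11 (limma adjusted p = 0.368), where the median over all genes was −0.29. None of those centring genes belonged to the assay set of the 3 genes.

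Adrbk1 did not pass for the mean over time points, at −0.20 for DVC minus CeA (95% CI −0.45 to 0.05, limma adjusted p = 0.141), while the methods' 2-factor test called it (adjusted p = 0.0448). Its direction turned with the scaling, at −0.65 with centring on genes read in every sample, 0.22 with centring within the assay set, 0.81 with quantile normalization per region and 0.76 on raw C_T values. The medians over the genes tested were −0.29, 0.60, 1.12 and 1.10, beside 0.11 on the deposited values. Adrbk1 lay below the median each time. At ZT9, however, the difference was −0.63 (95% CI −1.02 to −0.23, limma adjusted p = 0.0054), 1.54-fold lower in the DVC, with 35 genes (24.6%) lower there. Within animals Adrbk1 was higher in the CeA in 10 of 11 at ZT9. At ZT3 the sign was the other way, 0.18 (adjusted p = 0.598), with 5 of 7 animals higher in the DVC, and at ZT5 it was −0.16 (adjusted p = 0.479), with 6 of 12 animals higher in the DVC and 5 higher in the CeA. The interaction of region and time point for Adrbk1 gave p = 0.0464 and a limma adjusted p of 0.439. In that test 0 genes (0%) passed by limma or by the methods' 2-factor model after adjustment, with 15 at an unadjusted p of 0.05 or less by each. The ZT9 difference also varied with the scaling, at −1.21 with centring on genes read in every sample and −0.09 (adjusted p = 0.611) with centring within the assay set. The medians over the genes tested were −0.47 and 0.56.

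Arrb1 did not differ detectably between the regions, with −0.09 for DVC minus CeA (95% CI −0.35 to 0.17, limma adjusted p = 0.552), and 13 of 30 animals were higher in the DVC. Its sign depended on the scaling too, at 0.40 (adjusted p = 0.0024) with centring within the assay set, where 57 of 69 genes passed, and −0.47 with centring on genes read in every sample. The medians over the genes tested were 0.60 and −0.29, so Arrb1 lay below the median in both.

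**Figure D2:**
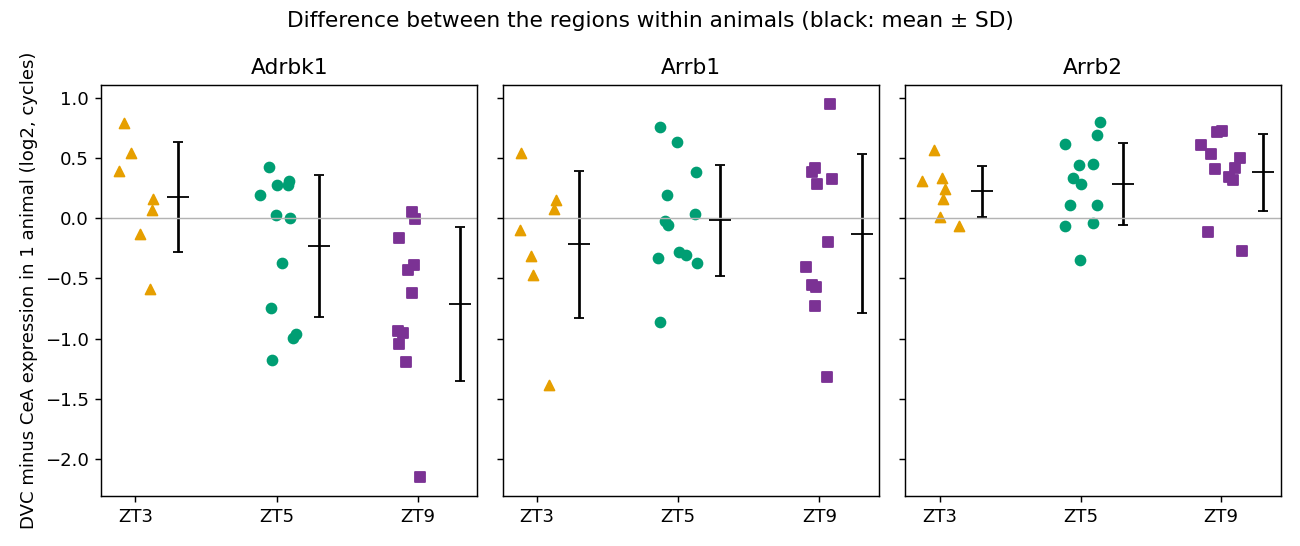
DVC minus CeA expression within each of 30 animals (log2, cycles; normalized C_T of the CeA minus that of the DVC) for the 3 genes by time point, 1 point per animal, with the mean ± SD in black. Points of Arrb2 lie mostly above 0, 24 of 30, and 10 of 11 points of Adrbk1 at ZT9 lie below 0.

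Divided by animal number, Adrbk1 in the DVC had a ZT9 minus ZT5 difference of the same sign in both sets, which passed in the lower-numbered one. For animals numbered below S166 its C_T ran from 18.56 through 19.12 to 19.63 at ZT5 (n = 6) and from 19.61 through 19.72 to 20.20 at ZT9 (n = 10), so that the groups met only at their edges. Expression fell by 0.68, the contrast being −0.68 (95% CI −1.03 to −0.32, limma adjusted p = 0.0141), or 1.60-fold, in a fit where 16 of 145 genes (11%) passed, 8 of them (5.52%) downward. On raw C_T the contrast was 0.37, where the median over all genes was 1.15. From S166 up the C_T ran from 19.23 through 19.96 to 20.43 at ZT5 (n = 11) and was 20.50, 21.94, 19.95, 20.61 and 20.41 in the 5 animals at ZT9. The difference there was −0.77 (95% CI −1.30 to −0.24), 1.70-fold, with a limma adjusted p of 0.151, in a fit where 0 of 145 genes (0%) passed and 14 had an unadjusted p of 0.05 or less. Without DVC ZT9 replicate 12, the sample at 21.94, the difference was −0.45 (adjusted p = 0.336). With that sample kept and centring within the assay set it was −0.65 (limma adjusted p = 0.013, adjusted over that set alone), where 10 of 72 genes passed.

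The change from ZT5 to ZT9 did not differ detectably between the sets for Adrbk1 in the DVC, with a difference of −0.09 (95% CI −0.77 to 0.59, limma adjusted p = 0.976; 0 genes passed by limma and 10 had an unadjusted p of 0.05 or less). With the set as a factor beside time point, the DVC contrast ZT9 minus ZT5 was −0.72 (95% CI −1.03 to −0.41, limma adjusted p = 0.00104) and the F-test over time points gave an adjusted p of 0.00316, both past the threshold that the fit without the set had missed. There 18 of 145 genes passed the contrast and 14 of 145 the F-test. The same fit put ZT3 minus ZT5 at −0.10 (95% CI −0.49 to 0.29). Within the higher-numbered set alone it was −0.12 (adjusted p = 0.88; 1.38% of genes passed).

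For the CeA no ZT9 minus ZT5 difference of Adrbk1 passed in either set. Animals below S166 had a C_T of 19.45, 19.53, 19.20 and 18.83 at ZT5 and from 18.84 through 19.19 to 19.74 at ZT9 (n = 6), a difference in expression of 0.04 (95% CI −0.53 to 0.61), where 0 genes passed by limma and 7 had an unadjusted p of 0.05 or less. From S166 up it was 19.13, 19.53 and 20.46 as lowest, median and highest at ZT5 (n = 9), and 20.34, 19.79, 19.94, 19.67 and 19.45 at ZT9, a difference of −0.24 (95% CI −0.73 to 0.25; 4 genes, 2.82%, passed). ZT3 can be compared only among the higher-numbered animals, where ZT3 minus ZT5 was −0.61 (95% CI −1.05 to −0.17, limma adjusted p = 0.11; 2.82% passed), beside −0.72 over all animals. With the set as a factor it was −0.57 (adjusted p = 0.219).

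**Figure D3:**
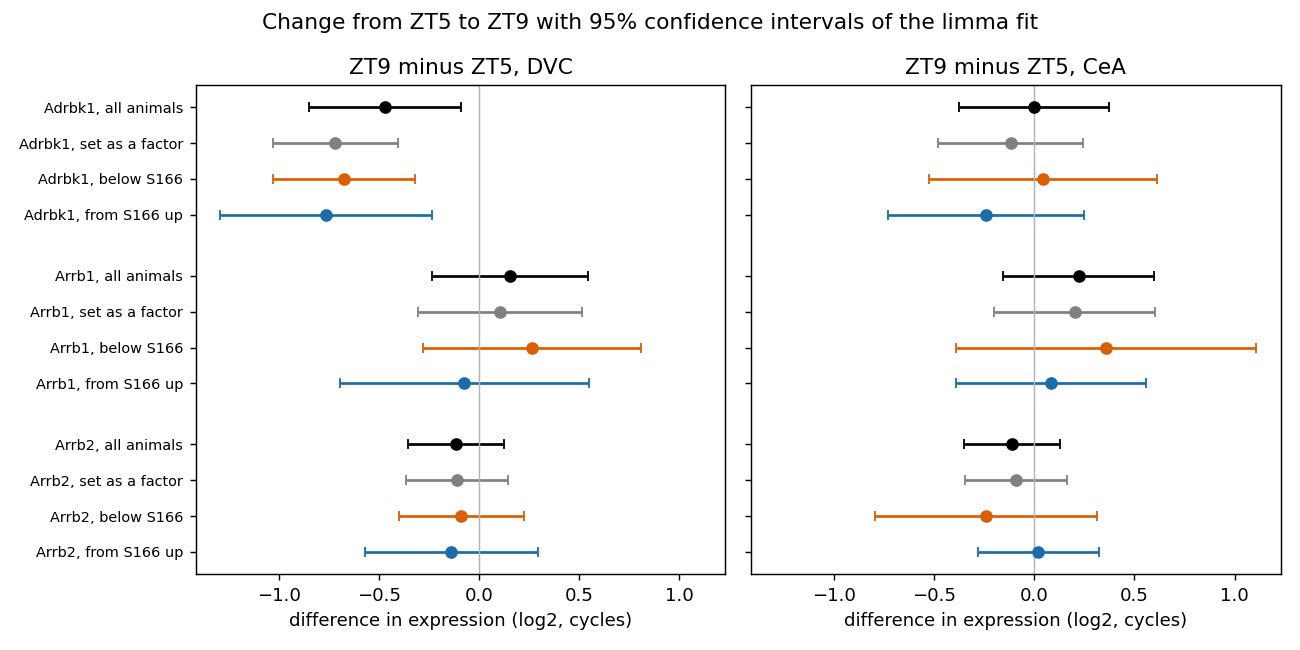
ZT9 minus ZT5 difference in expression (log2, cycles) with its 95% confidence interval for each gene in the DVC (left) and CeA (right), over all animals, with the set as a factor, and within each set. The 4 intervals of Adrbk1 in the DVC lie below 0, and all others shown include 0.

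Neither β-arrestin gene passed within a set. ZT9 minus ZT5 of Arrb1 in the DVC was 0.26 below S166 and −0.07 from S166 up, and for the CeA it was 0.36 below and 0.08 above the division. Arrb2 had −0.09 and −0.14 for the DVC, then −0.24 and 0.02 for the CeA. The limma adjusted p-values of these 8 contrasts ran from 0.621 to 0.922, and the difference between sets passed for none of the 3 genes in either region. For the CeA 0 genes passed that test by limma, and 11 had an unadjusted p of 0.05 or less.

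The level of Adrbk1 itself differed between the sets at matched time points, a comparison added after its values were seen. Over ZT5 and ZT9 the difference of higher-numbered minus lower-numbered animals in the DVC was −0.79 (95% CI −1.14 to −0.45, limma adjusted p = 0.0029), 1.73-fold, where 20 of 145 genes (13.8%) passed, 9 of them (6.21%) downward. It was −0.75 at ZT5 (adjusted p = 0.0387; 7.59% passed) and −0.84 at ZT9 (adjusted p = 0.146; 0 genes passed by limma and 23 had an unadjusted p of 0.05 or less). At ZT5, 7 of 11 higher-numbered animals had a C_T above the highest of the 6 lower-numbered ones. The CeA difference was −0.49 (95% CI −0.83 to −0.15, adjusted p = 0.0373), 1.40-fold, where 30 genes (21.1%) passed, 11 of them (7.75%) downward, with −0.35 at ZT5 (adjusted p = 0.386; 6.34% passed) and −0.63 at ZT9 (adjusted p = 0.0809; 8.45% passed). Arrb1 and Arrb2 did not pass in either region, with differences between −0.18 and 0.09. On raw C_T the Adrbk1 differences were 0.23 and −0.27, where the medians over all genes were 0.94 and 0.37.

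**Figure D4:**
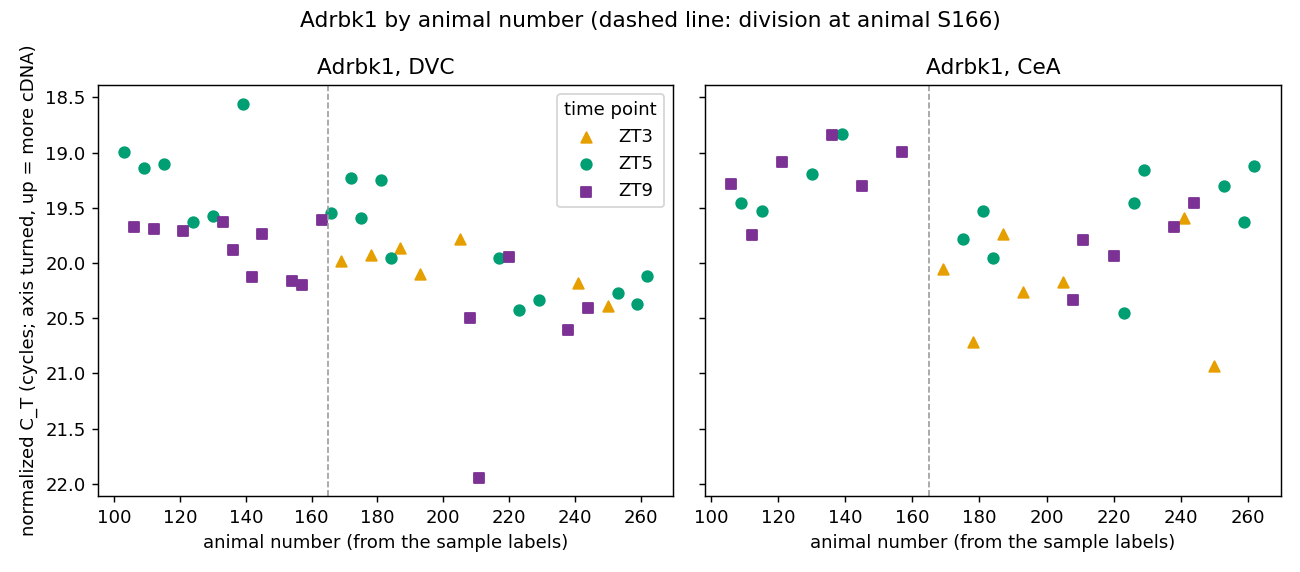
Normalized C_T of Adrbk1 (cycles, axis turned so that up is more cDNA) against animal number in the DVC (left) and CeA (right), with a symbol per time point and a dashed line at the division of the sets. Most ZT5 points in the DVC stand above the ZT9 points on the left of the line, and on its right both lie lower, with ZT5 at a median C_T of 19.96.

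The amount of cDNA moved with the sets and with time point. Before normalization the median C_T of a sample averaged 19.45 in the DVC of lower-numbered animals and 18.71 in that of higher-numbered ones, and for the CeA 20.39 and 19.90. DVC means at ZT5 and ZT9 were 20.15 and 19.03 in the lower set, and 18.84 and 18.46 in the higher set. The CeA mean of the lower set includes the 2 samples that lacked the assay set of the 3 genes. Over samples, raw C_T of Adrbk1 moved by 0.69 ± 0.09 (SE, n = 39) cycles per cycle of the sample median in the DVC and by 0.80 ± 0.10 (SE, n = 31) in the CeA, while the slope of Arrb1 was 1.12 and 1.18 and that of Arrb2 was 0.92 and 1.0. With the sample median as a covariate, the difference between sets for Adrbk1 in the DVC was −0.64 (limma adjusted p = 0.0877), and ZT9 minus ZT5 over all animals was −0.34 (adjusted p = 0.245). Of the 24 CeA samples, leaving out any 1 of 9 (ZT5 replicates 5, 6, 14 and 16 and ZT9 replicates 3, 5, 9, 11 and 13) left the CeA difference between sets above the threshold, with values from −0.48 to −0.42 and an adjusted p of up to 0.104.

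Markers of cell types were read beside these results. For time point 2 of 8 markers passed by limma in the DVC, beside 10.3% of all genes. Clu, an astrocyte gene, was higher than at ZT5 by 0.96 at ZT3 (adjusted p = 0.022) and by 0.78 at ZT9 (adjusted p = 0.0101), while Aldh1a1, the other astrocyte gene, was −0.07 and 0.14, neither past the threshold. At the low C_T of Clu, with a median of 12.19 in both regions, normalized values repeated between samples. Their SD in the DVC at ZT3 was 0.014. Slc32a1, the vesicular GABA transporter, had an F-test at adjusted p = 0.0481, with ZT9 minus ZT5 at −0.56 (adjusted p = 0.086), while Gad1, the other GABAergic gene, was 0.09 (adjusted p = 0.786). The mean C_T of the astrocyte list (Clu and Aldh1a1) ran from 13.95 to 16.13 at ZT5 and from 13.79 to 15.66 at ZT9, and that of the GABAergic list (Gad1 and Slc32a1) from 20.79 to 21.80 and from 21.23 to 22.54. None of 7 markers passed for time point in the CeA, beside 3.52% of all genes. Between the sets 1 of 8 markers passed in the DVC, beside 13.8% of all genes, and 0 of 7 in the CeA, beside 21.1%. The marker that passed was Rgs9, higher by 0.47 in the higher-numbered animals. Rgs9 was listed for striatal neurons, but the DVC lies in the brainstem. Its DVC minus CeA difference was 0.82 (limma adjusted p = 6.4e-08), where the median over all genes was 0.11. Which cells Rgs9 marks in these punches was not tested. The part of the markers in the Adrbk1 values was not tested either.

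Across the DVC samples r was above 0 for all 3 pairs of the genes, and 2 of them passed after adjustment. Over 39 samples C_T of Arrb1 and Arrb2 had a Pearson r of 0.58 (permutation p = 0.00016, adjusted over 6 pairs 0.00096) and a Spearman rho of 0.56 (p = 0.00036). Adrbk1 and Arrb2 had r = 0.41 (permutation p = 0.0103, adjusted 0.0308) and rho = 0.40 (p = 0.0132), and Adrbk1 and Arrb1 had r = 0.36 (permutation p = 0.0269, adjusted 0.0538) and rho = 0.35 (p = 0.0313). Without the 2 samples farthest from the median of the first gene of each pair the r values were 0.62, 0.41 and 0.36. The order of the pairs varied with the scaling. With median centring r was 0.68 for Adrbk1 and Arrb2, 0.39 for Arrb1 and Arrb2 (adjusted 0.0301, with rho = 0.30 and its adjusted p 0.0942) and 0.34 for Adrbk1 and Arrb1 (adjusted 0.05, with rho = 0.34 and its adjusted p 0.0723).

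The same pairs over 31 CeA samples had r = −0.11 for Arrb1 and Arrb2 (permutation p = 0.561, adjusted 0.6; rho = −0.13, p = 0.496), r = −0.10 for Adrbk1 and Arrb2 (permutation p = 0.6, adjusted 0.6; rho = −0.19, p = 0.295) and r = 0.35 for Adrbk1 and Arrb1 (permutation p = 0.0549, adjusted 0.0824; rho = 0.31, p = 0.0863). Without the 2 farthest samples they were −0.06, −0.34 and 0.24. No pair passed there on the deposited values without centring by time point. Adrbk1 and Arrb1 passed with median centring (r = 0.54, adjusted 0.00438, and rho = 0.64, adjusted 0.00054), there on genes of the other assay set alone. They also passed on deviations from the time point means (r = 0.41, adjusted 0.0334, and rho = 0.51, adjusted 0.0109). The difference between the regions in r was not tested.

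**Figure D5:**
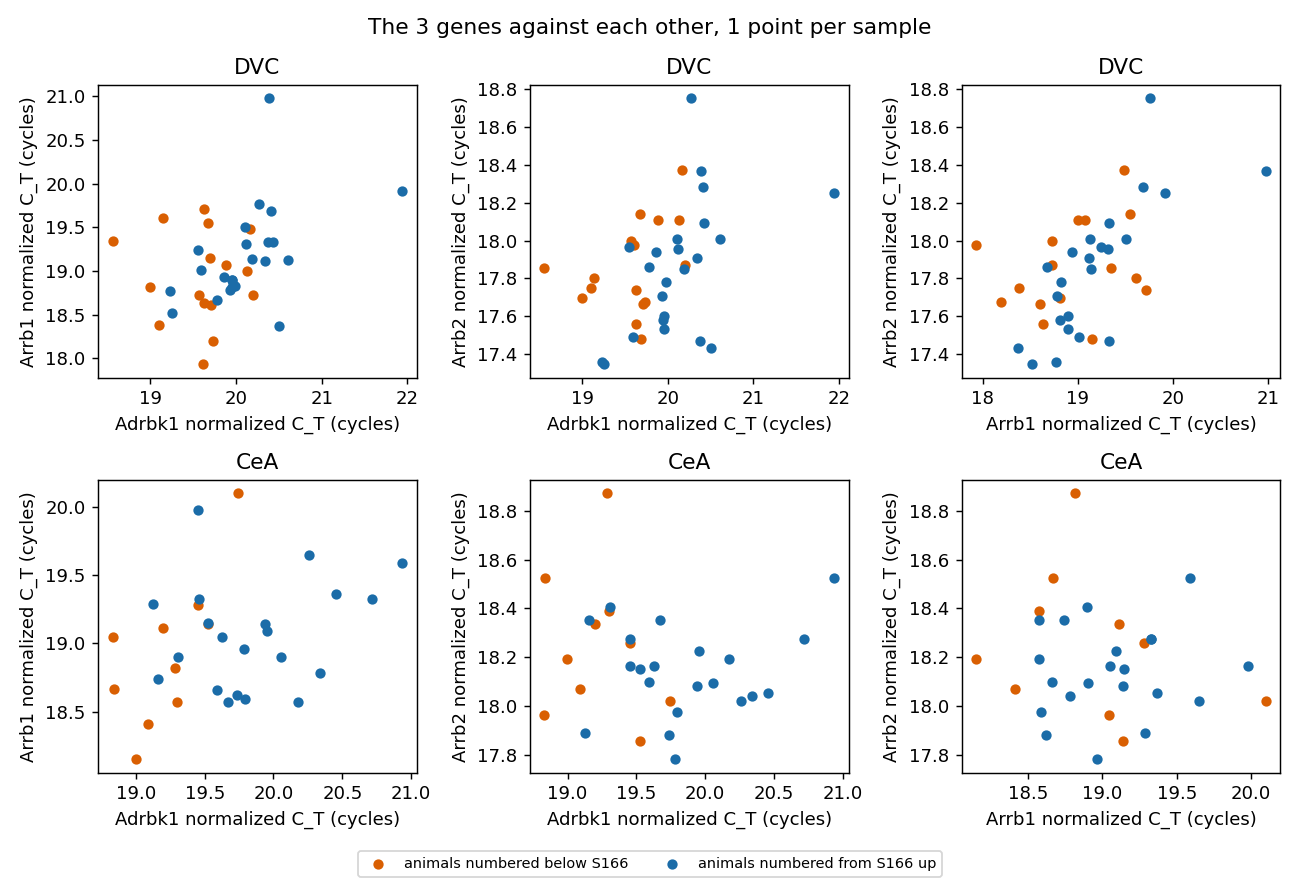
Normalized C_T (cycles) of each pair of genes in the DVC (top, 39 samples) and CeA (bottom, 31 samples), 1 point per sample, coloured by animal number. The Arrb1 and Arrb2 points in the DVC rise together (r = 0.58), with r = 0.75 among animals from S166 up, and those in the CeA have r = −0.11.

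In the DVC the correlations were larger among the 23 animals from S166 up, with r of 0.75 for Arrb1 and Arrb2, 0.51 for Adrbk1 and Arrb2 and 0.49 for Adrbk1 and Arrb1. Among the 16 animals below S166 the values were 0.27, 0.38 and −0.06, and the difference between the sets was not tested. The CeA pair of Adrbk1 and Arrb1 had r = 0.70 over 10 lower-numbered animals and 0.22 over 21 others. On raw C_T the 6 values of r lay between 0.79 and 0.90, where the median over all gene pairs was 0.69 for the DVC and 0.74 for the CeA, and after normalization the medians over all pairs were −0.00 and 0.01.

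The same gene in both regions of an animal was compared over 30 animals, an addition made after the data were seen. Pearson r between the regions was 0.40 for Arrb2 (permutation p = 0.0292, adjusted over 3 genes 0.045; rho = 0.35, p = 0.0595), 0.39 for Arrb1 (permutation p = 0.03, adjusted 0.045; rho = 0.36, p = 0.0522) and 0.31 for Adrbk1 (permutation p = 0.0891, adjusted 0.0891; rho = 0.35, p = 0.061). Without the 2 farthest animals r was 0.38, 0.27 and 0.26. On deviations from the means of time point and set r was 0.46 for Arrb2, 0.38 for Arrb1 and 0.04 for Adrbk1. Within the lower and the higher set it was 0.71 and 0.38 for Arrb2, 0.37 and 0.40 for Arrb1, and −0.03 and 0.00 for Adrbk1.

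The genes whose deviations from the time point means were most like each member, by the mean of r in the DVC (39 samples) and the CeA (31 samples) over 138 ranked genes, are a description. For Adrbk1 they included Elk1, an ETS transcription factor (mean r = 0.63), and the kinase Akt1 (0.47). For Arrb1 they were Rasa3, a GTPase-activating protein (0.67), Atf2, a transcription factor (0.58), and Rasgrp1, a Ras exchange factor (0.54). For Arrb2 they were the kinases Pak1 (0.60), Map3k12 (0.58) and Map2k1 (0.52). Arrb1 ranked 7 for Adrbk1, and Arrb2 ranked 23 for Arrb1 and 36 for Adrbk1. Values of a sample share its cDNA and its normalization.

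Other genes of receptor desensitization were read in the same samples. Of Gprk6, another receptor kinase, Gnb1, a G-protein β subunit, and Pebp1, an inhibitor protein that binds GRK2 when phosphorylated, 1 of 3 passed the F-test over time points in the DVC, beside 10.3% of all genes, and 0 of 3 in the CeA, beside 3.52%. Pebp1 was higher in the DVC at ZT9 than at ZT5 by 0.51 (limma adjusted p = 0.0177), beside −0.47 for Adrbk1, and at ZT3 the difference was 0.56 (adjusted p = 0.0515), where its normalized value was the same in all 7 samples. Over the DVC samples its lowest and its median normalized C_T were both 11.38. Gprk6 was −0.24 at ZT9 against ZT5 in the DVC and 0.18 in the CeA (adjusted p = 0.533 and 0.789). Gnb1 was 0.05 and −0.24. The median of the 3 in the DVC was 0.05, beside 0.02 over all genes.

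Of 5 genes whose proteins assemble on β-arrestins, 1 passed that test in the DVC and 0 in the CeA, beside the same 10.3% and 3.52%. Ppp2r1a, the scaffold subunit of protein phosphatase 2A, was higher in the DVC than at ZT5 by 0.74 at ZT3 (limma adjusted p = 0.0238) and 0.65 at ZT9 (adjusted p = 0.00835). Mapk3 (ERK1) was 0.61 and 0.38, neither past the threshold. The median ZT9 minus ZT5 difference of the 5 was 0.15 for the DVC and 0.05 for the CeA.

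Of the G-protein-coupled receptors listed for this comparison, 0 of 6 passed for time point in the DVC and 0 of 5 in the CeA, beside 10.3% and 3.52% of all genes. Crhr1, a corticotropin-releasing hormone receptor, was −0.93 at ZT9 against ZT5 in the CeA (limma adjusted p = 0.127) and −0.31 in the DVC. Grm5, a metabotropic glutamate receptor, was −0.48 and −0.44, and Oprm1, the μ-opioid receptor, −0.35 and 0.06. Of 6 effector genes 0 passed in either region, beside the same shares. Plcb2, a phospholipase C, was −0.93 at ZT9 in the DVC (adjusted p = 0.0594) and 0.16 in the CeA, Plcb1, another phospholipase C, −0.04 and 0.34, and Itpr1, an IP3 receptor, 0.20 and 0.46. Medians of the ZT9 minus ZT5 contrast over these receptors were −0.13 for the DVC and −0.35 for the CeA, and over the effectors 0.04 and 0.16, beside 0.02 and −0.00 over all genes.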

How the data were processed

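Expression was measured by microfluidic qRT-PCR in 39 DVC and 33 CeA samples, after 14 cycles of preamplification. The deposited values are C_T in cycles, a log2 scale, as read and as quantile-normalized by the authors. Normalizing the raw table over all samples of both regions gave the deposited one within 4.99e-09 cycles. A deposited table of the authors' own differences from ZT5 was not used. Raw columns of DVC samples are headed NTS and were matched by animal number.

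Sign-turned C_T was fitted with limma 3.58.1 in R 4.3.3 for genes with at least 2 values per group, adjusted by Benjamini-Hochberg over all genes tested, with a threshold of 0.05. The fits were tested on simulated data. Two-sided permutation tests used 100000 draws, or every regrouping where a group was under 10 (Python 3.11.15, SciPy 1.17.1). Alternatives were the methods' one-way and 2-factor models, other normalizations, the set of animals, samples left out in turn, and the animal as a block, since both regions of an animal share its number (consensus correlation 0.0675). The sample median as a covariate, centring within the assay set, the level between sets, the relation between regions of an animal and that to animal number were chosen after seeing the data. Replicates are separate animals, and their number limits precision.

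The 3 genes, the division at S166 and the lists were chosen with earlier results of these data known. Besides the 3 genes, the text names the 3 genes most like each and, of each list, the 3 with the smallest F-test p in either region. Some genes that this rule picks, and a marker list, are not reported here. Gene names came from RefSeq.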

Additional observations from a re-analysis of the deposited data

Results flagged for a closer look

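Among 27 groups of 4 to 10 samples examined for 1 sample far from the rest, 2 had one, both for Arrb1, and chance flags about 1 in 20 such groups. Arrb1 in DVC ZT3 replicate 7 had a C_T of 20.98, while the other 6 samples lay between 18.67 and 19.50. Without it the ZT3 minus ZT5 difference of Arrb1 in the DVC was 0.13 in place of −0.16. The median C_T of that sample before normalization was 20.52, the highest of the DVC ZT3 samples. Arrb1 in CeA ZT9 replicate 2, of the lower-numbered set, had a C_T of 20.10, while the other 5 samples of the set lay between 18.15 and 18.82. The gap took 0.639 of the range of the first group and 0.657 of that of the second.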

How the results depend on the processing

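Over the alternatives other than leaving out 1 sample, 434 values kept direction and side of the threshold, 49 changed sign, 28 passed where they had not and 5 no longer passed, and the cause was not tested. Keeping only samples with under 10% failed reactions, or setting no minimum of values per group, could not change the estimates for these genes. Both are counted here.

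With C_T not normalized, values were 0.26, 0.48 and 0.46 (Adrbk1, Arrb1, Arrb2) for ZT3 minus ZT5 in the DVC, 0.023 and 0.31 (Adrbk1, Arrb2) for ZT9 minus ZT5 in the DVC, 0.41 for Arrb2 ZT3 minus ZT5 and 0.10 for Adrbk1 ZT9 minus ZT5 in the CeA, and 0.76 and 0.94 (Adrbk1, Arrb1) for DVC minus CeA. ZT9 minus ZT5 in the DVC of lower-numbered animals was 0.37, 1.33 and 0.88 (Adrbk1, Arrb1, Arrb2), and of higher-numbered ones 0.39 and 0.25 (Arrb1, Arrb2). ZT3 minus ZT5 of Adrbk1 in the higher set was 0.081 (DVC) and 0.036 (CeA), and ZT9 minus ZT5 of Arrb2 there −0.049 (CeA). Higher minus lower set was 0.23, 0.74 and 0.82 (Adrbk1, Arrb1, Arrb2) in the DVC and −0.27 and 0.058 (Adrbk1, Arrb1) in the CeA. The correlations were 0.82 for Adrbk1 and Arrb1 in the DVC, and 0.90, 0.79 and 0.84 for the 3 pairs in the CeA.

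Median centring used the genes read in every sample of the region or regions fitted. With CeA samples these all came from the other assay set, since 2 CeA samples lacked the set of the 3 genes. Such centring gave DVC minus CeA of −0.65, −0.47 and −0.11 (Adrbk1, Arrb1, Arrb2). It gave Adrbk1 ZT9 minus ZT5 of 0.12 in the CeA, −0.055 and 0.037 in its lower and higher set, and a difference between sets of 0.093 there and 0.071 in the DVC (0.000522 for Arrb2). Higher minus lower set was −0.14 for Arrb2 in the DVC, and −0.52 for Adrbk1 and −0.014 for Arrb2 in the CeA. Correlations were 0.34 for Adrbk1 and Arrb1 in the DVC, and 0.54 and 0.27 for Adrbk1 with Arrb1 and Arrb2 in the CeA. Centring within the assay set gave a limma adjusted p of 0.0473, adjusted over that set alone, for the DVC F-test of Adrbk1, where 12 of 72 genes passed. It gave 0.043 for Adrbk1 ZT9 minus ZT3 in the DVC, 0.037 for ZT9 minus ZT5 in the CeA, −0.018 for that in the lower set and −0.65 for that in the higher set of the DVC. It gave DVC minus CeA of 0.22 and 0.40 (Adrbk1, Arrb1), and for Arrb2 −0.034 between sets in the DVC and −0.14 for ZT9 minus ZT5 in the higher set of the CeA. Over all genes, region calls divided 59 higher to 41 lower in the DVC, 32 to 69 with centring on genes read in every sample, 117 to 11 with quantile normalization per region, and 105 to 9 without normalization.

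Quantile normalization per region gave 0.81 and 0.97 (Adrbk1, Arrb1) for DVC minus CeA and 0.00339 for Adrbk1 ZT9 minus ZT5 in the CeA. With the sample median as a covariate this last value was 0.00143, Arrb1 ZT3 minus ZT5 in the CeA was −0.077, and higher minus lower set in the DVC was −0.64 for Adrbk1 and −0.042 for Arrb2. With the set as a factor, Adrbk1 in the DVC had an F-test adjusted p of 0.00316 and ZT9 minus ZT5 of −0.72. Among animals from S166 up, ZT9 minus ZT5 was −0.074 for Arrb1 in the DVC and 0.020 for Arrb2 in the CeA, DVC minus CeA of Adrbk1 was −0.33, and the CeA correlations of Arrb2 were 0.14 with Adrbk1 and 0.13 with Arrb1. Below S166 the DVC correlations were −0.056, 0.38 and 0.27. On deviations from time point means Adrbk1 and Arrb1 had r of 0.44 (DVC) and 0.41 (CeA).

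Without adjustment over the panel, Adrbk1 passed in the permutation test and the methods' test for the F-test in the DVC (p = 0.0436 and 0.0462) and the CeA (p = 0.0033 and 0.00326), with ZT9 minus ZT5 of −0.47 in the DVC and ZT3 minus ZT5 of −0.72 and ZT9 minus ZT3 of 0.71 in the CeA. It also passed in the methods' test for the interaction (p = 0.0459) and, with and without adjustment, for the region. That region test weights the time points by their numbers of samples, unlike the −0.20 for their mean.

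With the animal as a replicate block, DVC minus CeA was −0.21, −0.09 and 0.30 (Adrbk1, Arrb1, Arrb2), the interaction of Adrbk1 had an adjusted p of 0.363, and no call changed. The block took 1 correlation for the whole panel, 0.0675. On deviations from the time point means r between the regions of an animal was 0.37, 0.39 and 0.41 for these genes. The fit therefore takes up little of their pairing.

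Leaving out 1 sample at a time kept 3 calls throughout: Arrb2 between the regions (0.28 to 0.33), and Adrbk1 in the DVC for ZT9 minus ZT5 of the lower-numbered animals (−0.77 to −0.55) and between the sets (−0.89 to −0.64). For Adrbk1 in the CeA, the F-test adjusted p ran from 0.0302 to 0.205, ZT3 minus ZT5 from −0.82 to −0.60 (called without ZT3 replicate 6, ZT5 replicate 10 or ZT9 replicate 11), ZT9 minus ZT3 from 0.59 to 0.82 (called without ZT9 replicate 11), ZT3 minus ZT5 of the higher-numbered animals from −0.72 to −0.49 (called without ZT5 replicate 10), and the difference between sets from −0.54 to −0.42 (called in 15 of 24). Uncalled values that changed sign for Adrbk1 ran from −0.15 to 0.041 for ZT9 minus ZT3 in the DVC, −0.084 to 0.081 for ZT9 minus ZT5 in the CeA, −0.048 to 0.18 for that in its lower set, and −0.27 to 0.22 for the difference between sets in the DVC. For Arrb1 they ran from −0.26 to 0.13 (ZT3 minus ZT5, DVC), −0.014 to 0.17 (ZT3 minus ZT5, CeA), −0.13 to 0.0061 (DVC minus CeA), −0.28 to 0.11 and −0.027 to 0.32 (ZT9 minus ZT5 of the higher set, DVC and CeA) and −0.22 to 0.032 (between sets, CeA). For Arrb2 they ran from −0.069 to 0.038 (ZT3 minus ZT5, CeA), −0.17 to 0.042 (difference between sets in ZT9 minus ZT5, DVC), −0.049 to 0.059 (between sets, DVC) and −0.017 to 0.077 (ZT9 minus ZT5 of the higher set, CeA).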

Other observations

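Within the sets, C_T of the 3 genes was also set against animal number, on deviations from the time point means, as 12 relations chosen after the values were seen. In the DVC of the 23 higher-numbered animals C_T rose with the number for Arrb1 (r = 0.53, rho = 0.56), Arrb2 (r = 0.48, rho = 0.43) and Adrbk1 (r = 0.47, rho = 0.58), with permutation p-values for r of 0.00648, 0.0174 and 0.0218 and for rho of 0.0057, 0.0392 and 0.0047. After adjustment over the 12 relations the p-values for r were 0.0778, 0.0874 and 0.0874, so none passed. Without the 2 animals farthest from the median number r was 0.55, 0.60 and 0.42. In the CeA of the 10 lower-numbered animals the sign was the other way for Arrb1 (r = −0.58, rho = −0.82, permutation p = 0.0601 and 0.00594) and Adrbk1 (r = −0.63, rho = −0.60, permutation p = 0.0503 and 0.0738), each with an adjusted p of 0.144 for r. Without the 2 farthest animals r was −0.51 and −0.68. The other 7 relations had adjusted p-values for r from 0.179 to 0.624.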
